A study of Mus musculus with 6 samples.

Results

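The nuclear genes for the oxidative phosphorylation machinery of liver mitochondria were compared between male C57BL/6N mice on 2 diets. Members were the protein-coding rows of the deposited count table whose symbols begin with Nduf (complex I), Sdha to Sdhd (complex II), Uqcr or Cyc1 (complex III), Cox4 to Cox8 (complex IV) or Atp5 (complex V, the ATP synthase), together with Cycs, the electron carrier cytochrome c. This gave 96 of the 20107 genes of the table, of which 14843 are protein coding. By complex, 47 members fell under complex I, 8 under II, 9 under III, 14 under IV and 17 under V, and Cycs stood alone. The symbols also take in genes whose products are not subunits, so 82 members are subunits or cytochrome c and 14 are not. The latter are 12 assembly factors (Ndufaf1 to Ndufaf8 and Sdhaf1 to Sdhaf4), the paralog Ndufa4l2 and Cox7a2l, a factor that joins complexes III and IV. The label of the group is therefore slightly wider than its name, and it leaves out the subunits encoded in mitochondrial DNA, of which the table holds 0.

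Both groups were wild-type littermates of 16 weeks, fed from the age of 8 weeks for 8 weeks without restriction. The Chow group (replicates 7, 8 and 9) received chow. The HFHC group (replicates 1, 2 and 3) received a high-fat, high-calorie food with fructose and drank a high-fructose solution. Each replicate is the whole liver RNA of a separate animal, so a p-value sets the difference between diets against the spread between animals. In such bulk tissue fewer cells of a type cannot be told apart from less RNA per cell. Hepatocyte markers such as Alb, Ttr and Apoa1 (6 in all) together made up 68510 to 88020 CPM in each library, where CPM is a count scaled to a common library total.

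Complex I takes electrons from NADH and complex II takes them from succinate, and both pass them to coenzyme Q. Complex III moves them on to cytochrome c, complex IV hands them to oxygen, and the protons pumped by complexes I, III and IV drive the ATP synthase. In hepatocytes this chain oxidises the NADH and FADH2 that come from fatty acid and sugar breakdown. Its nuclear genes are known to be switched on together by the transcription factors NRF1, GABP (an ETS family protein) and YY1, with the coactivators encoded by Ppargc1a and Ppargc1b.

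The promoters of 3 members, printed here, show letters by which NRF1 or GABP is usually recognised. They belong to Ndufa8, the complex I gene that passed the test below, to Uqcr11, the complex III gene next in line after Uqcrq by p, and to Cycs, which did not pass. Each window runs from 250 bases before the RefSeq start site to 50 after it, 5′ to 3′ on the gene's own strand, in build GRCm38.p6 (mm10). Capitals mark the NRF1 letters GCATGCGC and the ETS letters CCGGAAG. The YY1 letters AAGATGGC were in none of these windows. The window of Ndufa13, the subunit next by p with a window, held 0 matches to any of these letters and is not printed. The windows lie on the minus strand at chr2:36049289-36049588 for Ndufa8, chr10:80406772-80407071 for Uqcr11 and chr6:50566520-50566819 for Cycs.
Ndufa8: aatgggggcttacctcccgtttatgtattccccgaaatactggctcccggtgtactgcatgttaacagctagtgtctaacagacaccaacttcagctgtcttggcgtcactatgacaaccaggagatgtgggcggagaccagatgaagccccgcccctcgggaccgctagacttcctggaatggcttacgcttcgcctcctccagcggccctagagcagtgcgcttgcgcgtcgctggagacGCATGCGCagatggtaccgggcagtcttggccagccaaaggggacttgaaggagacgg
Uqcr11: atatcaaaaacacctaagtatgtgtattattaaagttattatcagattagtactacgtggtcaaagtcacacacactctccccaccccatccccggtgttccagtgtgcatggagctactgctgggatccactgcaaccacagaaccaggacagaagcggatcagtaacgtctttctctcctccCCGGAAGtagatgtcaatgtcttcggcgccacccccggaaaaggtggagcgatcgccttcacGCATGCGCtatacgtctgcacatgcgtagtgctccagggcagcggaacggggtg
Cycs: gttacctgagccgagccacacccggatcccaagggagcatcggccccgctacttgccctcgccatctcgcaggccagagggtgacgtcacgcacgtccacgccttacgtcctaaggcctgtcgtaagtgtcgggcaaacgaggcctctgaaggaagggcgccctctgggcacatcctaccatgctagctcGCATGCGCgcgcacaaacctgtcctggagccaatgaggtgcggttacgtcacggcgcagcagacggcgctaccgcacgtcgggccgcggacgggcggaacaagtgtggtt
Of the 96 members, 79 had 84 RefSeq windows of this kind, and Uqcrq was among the 17 without. The NRF1 letters, read on both strands, were found in 15.5% of the 84 windows, against 4.93% of 12761 windows of tested protein-coding genes and 2.71% of all 32851 windows of the same length. The ETS letters were found in 26.2%, 16.7% and 8.86% of them, and the YY1 letters AAGATGGC in 13.1%, 4.23% and 2.75%. At least 1 of the 3 motifs was found in 46.4% of the members' windows and 23.7% of those of tested protein-coding genes. In 75 windows of mitochondrial ribosomal protein genes it was 50.7%. The median log2 fold change with diet was 0.10 in the 13 tested members with the NRF1 letters and 0.08 in the 65 with a window but without them, so members with and without these letters lay at nearly the same place. A match describes the letters of a window and does not show a bound site.

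The HFHC libraries had totals of 30096409 to 30871297 counts and the Chow libraries of 26767416 to 27339613. Members took 0.995% to 1.06% of the counts in HFHC livers and 0.926% to 0.989% in Chow livers, so the ranges did not overlap on raw counts. After TMM scaling, which corrects the library totals for composition, the summed CPM of all members was 10127, 9745 and 10736 in HFHC livers and 9753, 9143 and 10201 in Chow livers, and the ranges overlapped. A single count stood for 0.0324 to 0.0374 CPM. Of the 96 members, 94 passed the filter on low counts. The other two, Cox4i2 and Cox6b2, are described with the isoforms.

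Few genes of this group differed between the diets. By edgeR's quasi-likelihood test at an adjusted p under 0.05, 2 of the 94 tested members were higher in HFHC livers, Uqcrq and Ndufa8, and 0 were lower. Over all 14896 tested genes, 503 were higher (3.38%) and 491 were lower (3.3%), so the members' share of 2.13% in the higher direction was no greater than that of the table. At an unadjusted p under 0.05 there were 14 members (14.9%), against 3314 of all tested genes (22.25%), and DESeq2 and limma-voom also called 2 higher and 0 lower. The intervals limit how large a change could have gone unseen. For 89 of the 94 the 95% confidence interval of the fold change lay within 1.5-fold in either direction, and for 93 within 2-fold.

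The members' median log2 fold change was 0.08 (quartiles 0.01 and 0.14), beside 0.00 for all tested genes, and 74 of 94 had a positive value. The change was under 0.2 in size for 77 of them, and the median standard error of a member was 0.09. This positive shift was not kept when the dependence of each library on transcript length and GC content was removed in the fit: the median was then −0.01, with 44 of 93 members positive, beside −0.02 for all genes. All 3 HFHC libraries lay above all 3 Chow libraries for 17 members (18.1%), against 13.5% of all tested genes. They lay below for Sdhaf3 alone, against 14.3%.

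**Figure D1:**
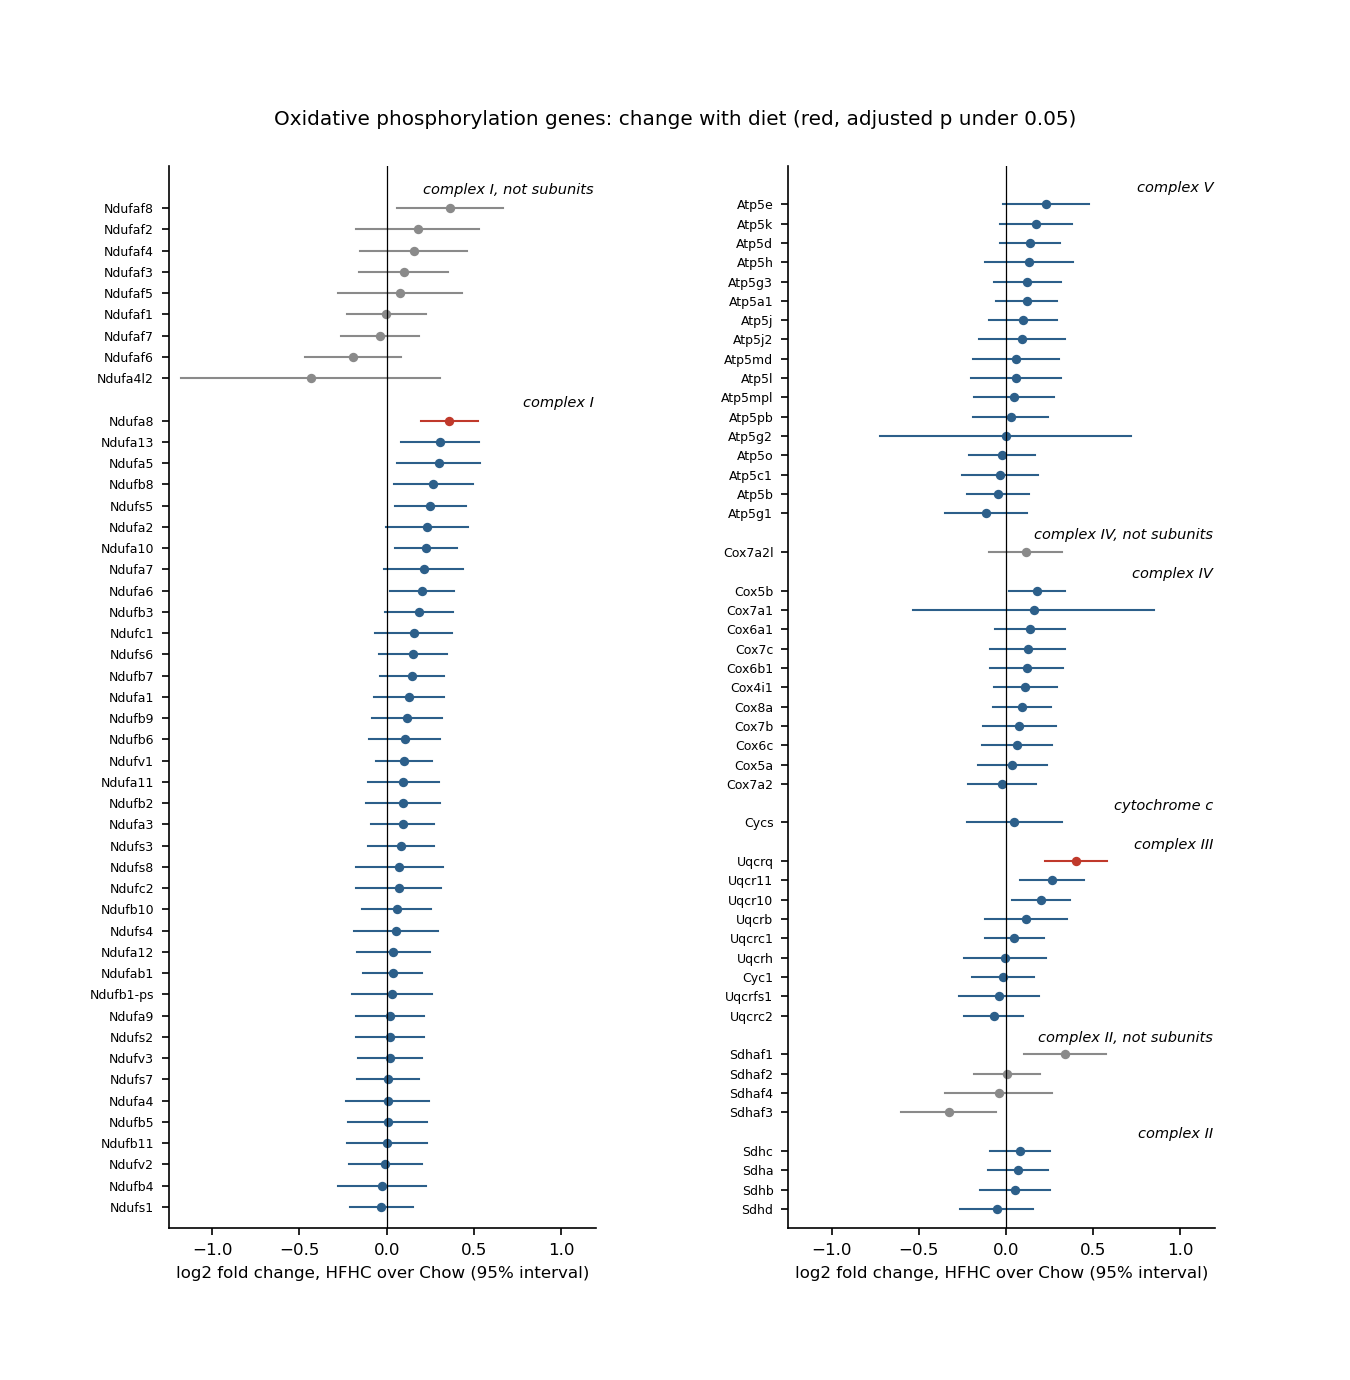
Log2 fold change (HFHC over Chow) of the 94 tested members with 95% confidence intervals, by complex, with subunits in blue and other members in gray. Red marks Uqcrq and Ndufa8, which passed an adjusted p under 0.05, and 77 of the points lie within 0.2 of zero. The shift of most points to the right of zero was not kept with the length and GC trend removed.

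Complex III held the member with the smallest p. Uqcrq encodes a small subunit of the cytochrome bc1 complex and lies at chr11:53427922-53430831 on the minus strand. Its level was 229.9, 226.9 and 238.4 CPM in HFHC livers 1, 2 and 3 and 183.7, 162.6 and 179.6 CPM in Chow livers 7, 8 and 9. The HFHC animals differed little among themselves, and the lowest of them lay well above the highest Chow animal. The fold change was 1.32 (95% confidence interval 1.17 to 1.495), or 0.40 ± 0.08 (SE, n = 3 per diet) on the log2 scale, with an adjusted p of 0.0192 by edgeR. With the length and GC trend removed it was 0.29 on the log2 scale, with an adjusted p of 0.0356. The call was lost when HFHC 1, Chow 7 or Chow 9 was left out, with adjusted p of 0.0560, 0.0569 and 0.0577, while the log2 fold change stayed between 0.36 and 0.44 over all 6 omissions. The deposited counts of Uqcrq were not whole numbers in any library, so its level carries the uncertainty of the submitters' estimate.

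Among the other small subunits of complex III, Uqcr11 and Uqcr10 had separate groups but did not pass the test. Uqcr11 stood at 72.3, 64.9 and 72.2 CPM in HFHC livers and 56.5, 56.0 and 62.0 CPM in Chow livers (log2 fold change 0.26 ± 0.08, adjusted p 0.0923 by edgeR). Uqcr10 stood at 76.0, 74.8 and 79.8 CPM against 68.2, 63.5 and 68.9 CPM (0.20 ± 0.07, adjusted p 0.147 by edgeR). With the length and GC trend removed their log2 fold changes were 0.10 and 0.05. Uqcrb and Uqcrh, which sit beside them in the complex, had log2 fold changes of 0.11 and 0.00 with overlapping groups. As fitted, the subunits that carry the electrons and the scaffold of complex III lay closer to zero. Cyc1, cytochrome c1, stood at 142.7, 141.1 and 134.7 CPM in HFHC livers and 141.8, 131.5 and 149.6 CPM in Chow livers. Uqcrfs1, the Rieske iron-sulfur protein, had a log2 fold change of −0.04. The core proteins Uqcrc1 and Uqcrc2 had values of 0.05 and −0.07, and in Uqcrc2 the HFHC livers at 184.7, 187.8 and 193.1 CPM overlapped the Chow livers at 196.0, 188.9 and 208.2 CPM. The median over the 5 small subunits was 0.20, over the redox subunits −0.03 and over the core proteins −0.01. With the length and GC trend removed these medians were 0.10, −0.12 and −0.06. The redox subunits then lay no closer to zero than the small ones. This spread within a complex was not tested.

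In complex I the called member was Ndufa8, an accessory subunit on the side of the inner membrane that faces the intermembrane space, at chr2:36036326-36049406 on the minus strand. Its level was 60.1, 59.2 and 64.5 CPM in HFHC livers and 46.5, 48.6 and 48.0 CPM in Chow livers. As for Uqcrq, the groups were tight and did not overlap. The fold change was 1.28 (95% confidence interval 1.14 to 1.44), or 0.36 ± 0.07 (SE, n = 3 per diet) on the log2 scale, with an adjusted p of 0.0218 by edgeR. With the length and GC trend removed it was 0.24 and no longer passed (adjusted p 0.0512). It was also lost without HFHC 1, Chow 7 or Chow 9, at adjusted p of 0.0619, 0.102 and 0.0763, although the log2 fold change was then 0.38, 0.34 and 0.37.

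The other accessory subunits of complex I, which surround its catalytic center, mostly lay slightly to the positive side. Of 30 accessory subunits 1 was called (3.33%), against 3.38% of all tested genes called higher. Their median log2 fold change was 0.11, or 0.05 with the length and GC trend removed. All HFHC livers lay above all Chow livers for 7 of the 30 (23.3%), against 13.5% of all tested genes. They lay below for 0, against 14.3%. These shares were not tested against those of all genes. Ndufa13, also known as Grim19, came next by p, with 77.6, 70.4 and 88.6 CPM in HFHC livers and 63.7, 59.9 and 67.6 CPM in Chow livers (0.31 ± 0.10, adjusted p 0.101 by edgeR). Its groups did not overlap, but 30.0% of its exonic bases overlap a gene on the opposite strand. Ndufa10 stood at 104.5, 111.3 and 118.4 CPM against 93.7, 92.2 and 99.8 CPM (0.23 ± 0.08, adjusted p 0.130 by edgeR), again with separate groups. Ndufa5, Ndufa6, Ndufs5 and Ndufb3 had separate groups too, with log2 fold changes of 0.30, 0.20, 0.25 and 0.18, and Ndufb8 reached 0.27 with overlapping groups. By name, the median was 0.17 in the 14 Ndufa subunits (Ndufa4 among them), 0.10 in the 11 Ndufb subunits and 0.06 in the 8 Ndufs subunits.

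The 7 nuclear core subunits of complex I, which hold the flavin and the iron-sulfur clusters that carry electrons from NADH, lay closer to zero. Their median log2 fold change was 0.02, and 0 of 7 were called at an adjusted p under 0.05 by edgeR or reached an unadjusted p under 0.05. Ndufv1, the flavin-binding subunit, was the highest at 0.10, with 147.5, 146.4 and 152.5 CPM in HFHC livers and 139.2, 135.1 and 142.8 CPM in Chow livers. These groups did not overlap, although they differed by little. Ndufs1, the largest iron-sulfur subunit, had the lowest value at −0.03, with overlapping groups. With the length and GC trend removed, 0 of the 7 core subunits had a positive value, and the median was −0.03. Whether accessory and core subunits differed was not tested.

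Complex II, which is also the succinate dehydrogenase of the TCA cycle, gave 0 calls among its 4 subunits by edgeR, and 0 at an unadjusted p under 0.05. Sdha, the flavoprotein, stood at 596.8, 580.4 and 554.9 CPM in HFHC livers and 547.8, 542.9 and 560.5 CPM in Chow livers. The ranges overlapped because HFHC 3 lay below Chow 9 (log2 fold change 0.07 ± 0.08, adjusted p 0.653 by edgeR). The iron-sulfur protein Sdhb and the membrane anchors Sdhc and Sdhd had log2 fold changes of 0.05, 0.08 and −0.05, with overlapping groups.

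Complex IV likewise held no called gene among 11 tested subunits by edgeR, and 1 of them, Cox5b, had an unadjusted p under 0.05. Cox5b, a zinc-binding subunit, stood at 52.0, 49.5 and 52.8 CPM in HFHC livers and 46.3, 45.5 and 44.5 CPM in Chow livers. Its groups did not overlap (0.18 ± 0.07, adjusted p 0.171 by edgeR). Cox4i1, a regulatory subunit, stood at 279.1, 276.8 and 305.3 CPM against 269.4, 251.1 and 276.4 CPM, with HFHC 2 barely above Chow 9 (0.11 ± 0.08). Cox8a was separate as well, at 0.10. Of the 10 ubiquitous subunits 9 had a positive value, with Cox7a2 the exception at −0.02. With the length and GC trend removed 4 of the 10 were positive.

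The ATP synthase gave 0 calls among 17 genes by edgeR, and 0 at an unadjusted p under 0.05. Atp5b and Atp5a1 encode the catalytic and the matching non-catalytic subunit of its rotary head. Atp5b stood at 994.6, 983.0 and 952.0 CPM in HFHC livers and 1005, 972.0 and 1046 CPM in Chow livers, and the groups overlapped (−0.05 ± 0.08). Atp5a1 stood at 940.8, 931.7 and 918.2 CPM against 843.3, 829.1 and 897.5 CPM, without overlap (0.12 ± 0.08, adjusted p 0.419 by edgeR). The 95% intervals of both log2 fold changes included zero, −0.22 to 0.13 for Atp5b and −0.06 to 0.29 for Atp5a1. Atp5e, a small subunit of the central stalk, had the highest value of the complex at 0.23 ± 0.11 (adjusted p 0.258 by edgeR), with overlapping groups. Atp5g1 had the lowest at −0.11. The 5 membrane subunits had a median of 0.06 and the 4 subunits of the peripheral stalk 0.06.

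Cycs stood at 47.5, 43.9 and 58.1 CPM in HFHC livers and 45.1, 44.8 and 54.8 CPM in Chow livers. The animals of each diet differed more among themselves than the diets did (0.05 ± 0.12, adjusted p 0.862 by edgeR).

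**Figure D2:**
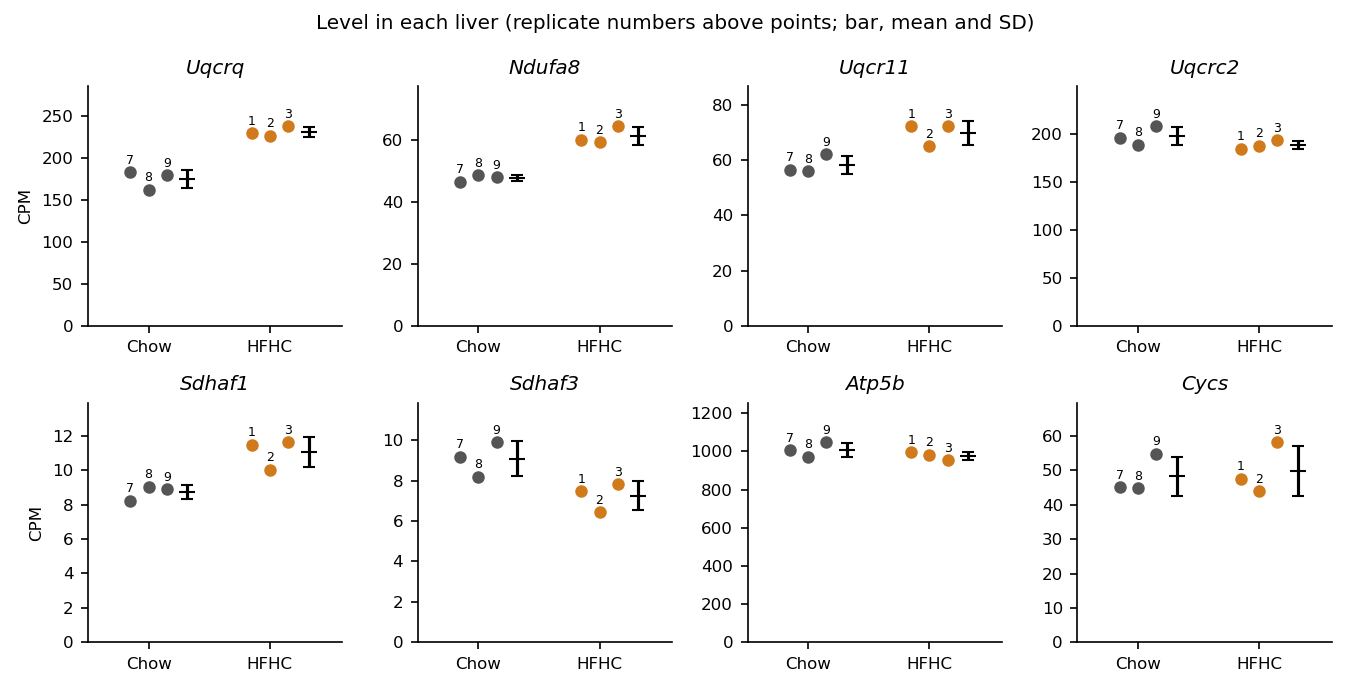
CPM of 8 members in each liver, with replicate numbers above the points and the mean and SD of 3 animals beside them. Uqcrq, Ndufa8, Uqcr11 and Sdhaf1 are higher in each HFHC liver than in each Chow liver and Sdhaf3 is lower, while Uqcrc2, Atp5b and Cycs overlap. Of the 8, Uqcrq and Ndufa8 passed the test.

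The assembly factors help to build complexes I and II without staying in them. Among 12 of them edgeR gave 0 calls, and 3 (25%) had an unadjusted p under 0.05, against 22.25% of all tested genes. They included the members nearest to the threshold in both directions. Sdhaf1, which guides iron-sulfur insertion into Sdhb, stood at 11.48, 10.02 and 11.6 CPM in HFHC livers and 8.23, 9.03 and 8.90 CPM in Chow livers (0.34 ± 0.10, adjusted p 0.0886 by edgeR). Sdhaf3, with a related role, stood at 7.48, 6.44 and 7.81 CPM against 9.18, 8.20 and 9.88 CPM (−0.33 ± 0.12, adjusted p 0.147 by edgeR). The groups of both genes were separate, in opposite directions. Their interval ends nearest to zero lay at 0.10 and −0.06 on the log2 scale. Of the exonic bases of Sdhaf1, 69.6% overlap a gene on the opposite strand, and the strand setting of the counting is not given in the sources used here. Ndufaf8, a complex I factor, stood at 10.6, 9.38 and 13.0 CPM against 8.88, 7.76 and 8.94 CPM (0.36 ± 0.14, adjusted p 0.15 by edgeR). HFHC 3 was the highest and the groups did not overlap.

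The genes just inside and just outside the threshold were close in size of change. Uqcrq and Ndufa8 passed at log2 fold changes of 0.40 and 0.36, and Sdhaf1, Uqcr11 and Ndufa13 missed at 0.34, 0.26 and 0.31.

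Where the tissue isoforms of a subunit had rows in the table, nearly all expression in the livers of both diets came from the ubiquitous form. Shares of an isoform sum are taken from CPM per kilobase of transcript, and levels are given as CPM. Cox4i1 made up 99.98% ± 0.01 of the Cox4i sum in HFHC livers and 99.98% ± 0.01 in Chow livers (SD, n = 3). Cox4i2, the form of lung and low oxygen, had 0.0320 to 0.0759 CPM, under the floor of 3 counts in each library (0.097 to 0.112 CPM). Cox6b2, the testis form, had 0 to 0.113 CPM, at or near that floor, against 120.2 CPM for Cox6b1 in Chow livers. Cox7a1, the heart and muscle form, gave 0.95% ± 0.15 of the Cox7a sum in HFHC livers and 0.83% ± 0.20 in Chow livers, with Cox7a2 making up the rest. Cox6a2, Cox7b2, Cox8b and Cox8c have no row in the table, so shares within Cox6a, Cox7b and Cox8 could not be given. Ndufa4, filed under complex I by name but now known as a subunit of complex IV, stood at 231.8, 221.6 and 268.6 CPM in HFHC livers and 250.4, 210.7 and 257.5 CPM in Chow livers. Its paralog Ndufa4l2 had the lowest log2 fold change of all members, −0.44 ± 0.33, from levels of 0.89, 0.64 and 0.70 CPM against 1.33, 0.58 and 1.13 CPM. At this depth Ndufa4l2 could not be placed, since its interval ran from −1.18 to 0.31.

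The c ring of the ATP synthase is made of a single mature protein that 3 genes encode with different import signals. Per kilobase Atp5g3 supplied 96.8%, 97.1% and 97.0% of their sum in HFHC livers and 96.4%, 96.6% and 96.4% in Chow livers. Atp5g1 supplied 2.63% ± 0.18 and 3.08% ± 0.11 (SD, n = 3), and Atp5g2 the remainder. These shares depend on where reads of pseudogenes are placed. The matching pseudogenes were also added to their genes, an alternative chosen after seeing the data. Atp5g3 then supplied 72.3% ± 1.10 in HFHC livers and 71.1% ± 1.16 in Chow livers, and Atp5g2 23.3% ± 1.15 and 24.1% ± 1.13. Both of these shares overlapped between the diets. Atp5g1 then supplied 4.63%, 4.17% and 4.25% in HFHC livers and 4.76%, 4.69% and 4.89% in Chow livers, without overlap. The difference in its share was not tested. Atp5g3 stayed the main source either way. The log2 fold changes of Atp5g3 (0.12 ± 0.09) and Atp5g1 (−0.11 ± 0.10) did not pass the test.

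Many members have processed pseudogenes that could take up their reads. Among pseudogenes of the table, 44 matched the transcript of a member with 90% identity or more over 50% or more of their length, and 29 members had such a match. For 7 members the pseudogenes held more counts than the gene. Over the 6 libraries Atp5g2 had 196 counts and its match Gm10175, with 100% identity, had 14871. Ndufb4 had 1532 counts and Ndufb4c 7309. Atp5h had 6685 counts and its pseudogenes 14140. The same held for Uqcrb, Atp5g1, Ndufab1 and Ndufa12. Adding the pseudogenes to their genes, an alternative chosen after seeing the data, left the calls at Uqcrq and Ndufa8, neither of which had a match. It moved the log2 fold change of a gene by at most 0.07 (Atp5g1). The levels of these 7 genes are thus uncertain, while their comparison between diets moved little.

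**Figure D3:**
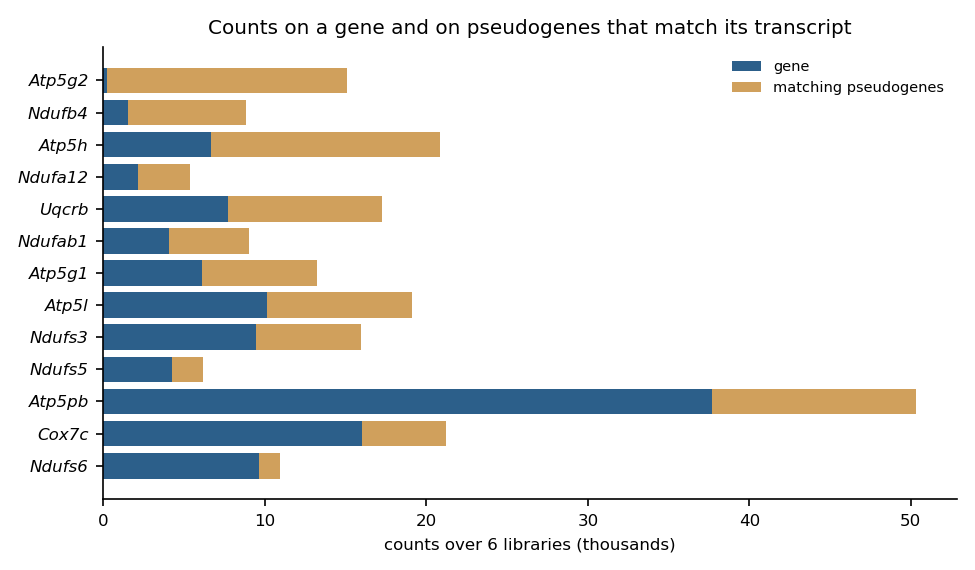
Counts over the 6 libraries on members (blue) and on pseudogenes that match their transcripts (tan), divided by 1000, for members whose pseudogenes held at least 10% of both. For Atp5g2 nearly the whole bar belongs to the pseudogene, 14871 against 196 counts.

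Complex by complex, the summed level of the subunits overlapped between the diets. For complex I the sum over 38 subunits was 2620, 2498 and 2880 CPM in HFHC livers and 2516, 2320 and 2640 CPM in Chow livers. It includes Ndufa4 by name (means of 240.6 CPM in HFHC and 239.5 CPM in Chow livers), which the complex IV sum leaves out. For complex II it was 1063 ± 18.7 against 1030 ± 43.4 CPM, and for complex III 1250 ± 49.3 against 1179 ± 67.7 CPM (SD, n = 3). For complex IV it was 1368 ± 91.7 against 1284 ± 73.7 CPM, and for the ATP synthase 3543 ± 116 against 3414 ± 178 CPM. The log2 ratios of the means ran from 0.04 (complex II) to 0.10 (complex I), and each difference between means was smaller than the sum of the SDs of the diets.

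Members shifted together between animals of the same diet. As a median over members of log2(CPM over the gene's Chow mean), HFHC livers 1, 2 and 3 stood at 0.07, −0.01 and 0.20 and Chow livers 7, 8 and 9 at 0.02, −0.10 and 0.09. HFHC 2 thus lay below Chow 7 and Chow 9. HFHC 3 was the highest of the 6 libraries for 72 of the 94 members, and Chow 8 the lowest of the Chow libraries for 80. The median log2 fold change of 0.08 fell to 0.02 without HFHC 3 and to 0.04 without Chow 8, and was 0.13 without HFHC 2 and 0.12 without Chow 9. The median over all tested genes stayed between −0.01 and 0.01 in each library.

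The complexes shared the highest library, HFHC 3, and the lowest, Chow 8, while the order of the other libraries differed between them. In HFHC 3 the subunits of complexes I, III, IV and V had medians of 0.23, 0.16, 0.19 and 0.20, and complex II had 0.10. In Chow 8 the complexes had medians between −0.11 and −0.09. The 78 mitochondrial ribosomal proteins, which translate the subunits encoded in mitochondrial DNA, followed with 0.08, 0.00 and 0.20 in HFHC livers and 0.01, −0.04 and 0.03 in Chow livers. The 81 tested cytosolic ribosomal proteins, another set of short transcripts, had −0.07, −0.26 and 0.05 against 0.04, −0.10 and 0.06. They shared the low place of Chow 8 but had HFHC 2 lowest of all.

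**Figure D4:**
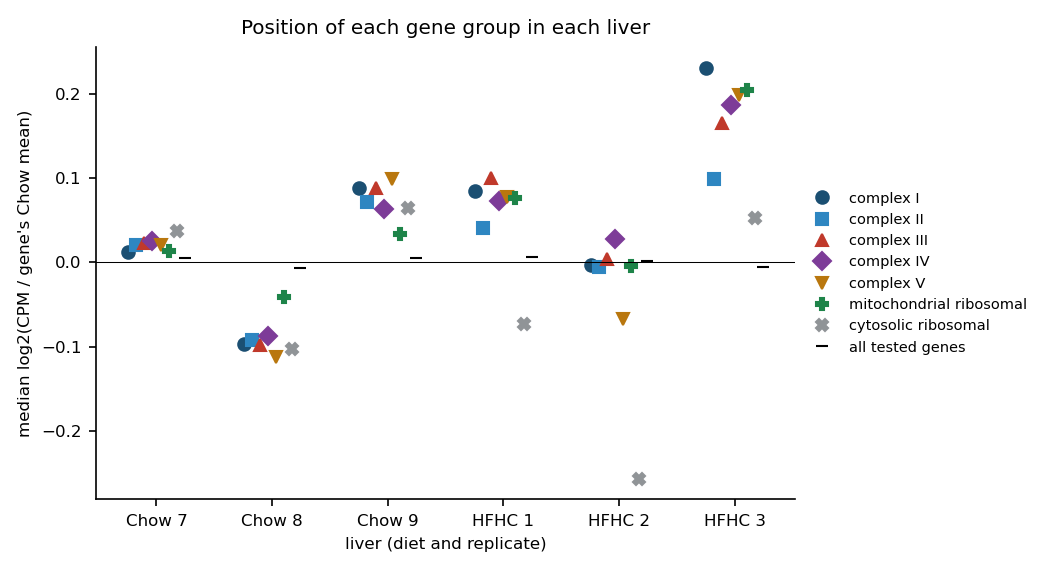
Median over each gene group of log2(CPM over the gene's Chow mean) in each of the 6 livers, for the subunits of complexes I to V, mitochondrial and cytosolic ribosomal proteins and all tested genes. The complexes are highest in HFHC 3 and lowest in Chow 8, and HFHC 2 lies among the Chow livers.

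Transcript length and GC content moved with the diet comparison in the whole table, and members have short transcripts. The median length was 782 bases over members and 2452 over all tested genes. In all tested genes the median log2 fold change was 0.07 up to 600 bases, 0.06 from 600 to 1000, 0.05 from 1000 to 2000, −0.01 from 2000 to 4000 and −0.10 above. Members had medians of 0.13, 0.08, 0.04 and 0.06 in the first 4 of these classes. With the trend removed they were 0.02, −0.02, −0.03 and 0.05, and those of all genes lay between −0.03 and −0.02 in each class. The cytosolic ribosomal proteins had a median of −0.08, which was −0.19 with the trend removed and so further from zero. By GC content, all genes ran from −0.16 at up to 40% to 0.08 above 60%. How far length and GC account for the members' shift was not tested beyond these fits.

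**Figure D5:**
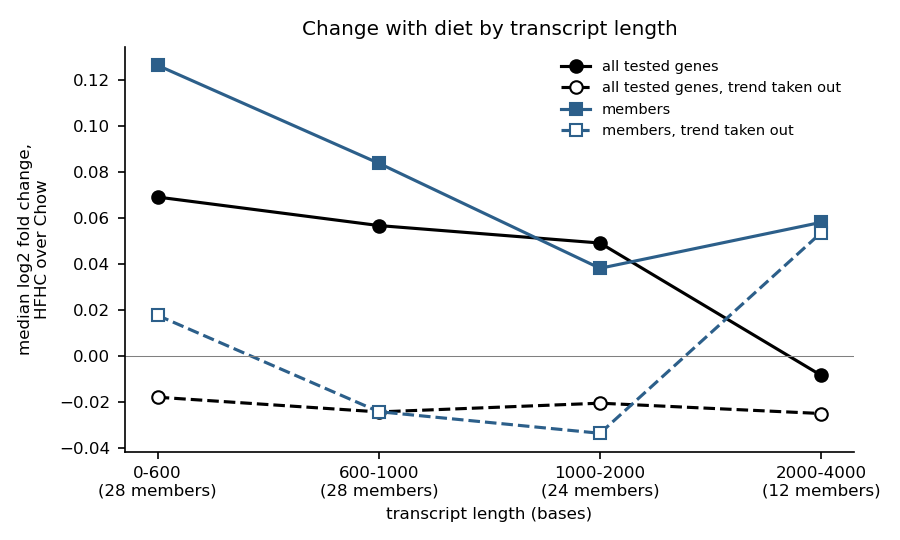
Median log2 fold change (HFHC over Chow) of all tested genes (black) and of members (blue) by transcript length in bases, as fitted (filled) and with each library's length and GC trend removed (open). The classes hold 28, 28, 24 and 12 members, and with the trend removed the members lie between −0.03 and 0.05.

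The other genes needed to build and feed the chain were read from the same fit. Of 40 assembly factors outside the symbol rule, 0 were called by edgeR and 5 had an unadjusted p under 0.05, with a median log2 fold change of 0.08. The 78 mitochondrial ribosomal proteins gave 0 calls, 15 at an unadjusted p under 0.05 and a median of 0.10. Of 13 coenzyme Q synthesis genes 0 were called and 1 had an unadjusted p under 0.05, with a median of 0.05. As fitted, these 3 sets had small positive medians, as the members did. Their medians with the length and GC trend removed were 0.04, 0.03 and −0.05 in this order, beside −0.01 for the members. An unadjusted p under 0.05 was reached by 12.5%, 19.2% and 7.69% of the 3 sets, against 22.25% of all tested genes. The sets were not tested against each other.

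Regulators of mitochondrial gene expression gave 0 calls among 22 by edgeR, with a median log2 fold change of 0.00. An unadjusted p under 0.05 was reached by 5 of them (22.7%), against 22.25% of all tested genes. Ppargc1a stood at 11.04, 9.51 and 7.11 CPM in HFHC livers and 9.90, 14.0 and 13.1 CPM in Chow livers (−0.42 ± 0.18, adjusted p 0.201 by edgeR), with overlap. Gabpa, a subunit of GABP, stood at 52.0, 57.1 and 55.9 CPM against 67.5, 59.8 and 71.5 CPM (−0.27 ± 0.09, adjusted p 0.107 by edgeR), without overlap. Ppargc1b and Nrf1 had log2 fold changes of −0.34 and −0.15, and Esrra and Tfam of 0.10 and 0.03, all with overlapping groups. The 6 regulators named here thus had values on both sides of zero, and 0 of them passed.

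Several genes around the chain passed the test. Of 27 TCA cycle and pyruvate dehydrogenase genes 2 were higher (7.41%) and 1 lower (3.70%). Of 19 inner membrane carriers and shuttle genes 3 were higher (15.8%) and 0 lower. Of 12 cristae and contact site genes 1 was higher (8.33%) and 0 lower. Over all tested genes 3.38% were higher and 3.3% lower. The shares at an unadjusted p under 0.05 by edgeR were 22.2%, 57.9% and 8.33% in this order, against 22.25% of all tested genes. The median log2 fold changes were 0.09, 0.22 and 0.13, or 0.06, 0.15 and 0.05 with the length and GC trend removed. These lists are small, and their shares were not tested against those of all genes. Pdk1, a kinase that turns pyruvate dehydrogenase off, rose from 77.2, 77.6 and 98.6 CPM in Chow livers to 132.4, 137.3 and 126.6 CPM (0.65 ± 0.11, adjusted p 0.00869 by edgeR). Samm50, which inserts proteins into the outer membrane and anchors cristae, rose from 59.6, 62.9 and 68.4 to 94.4, 88.9 and 87.2 CPM (0.50 ± 0.08, adjusted p 0.00840 by edgeR). Both calls held without each library in turn. Pcx, pyruvate carboxylase, rose by 0.61 ± 0.11 on the log2 scale (adjusted p 0.0156 by edgeR). Its adjusted p was 0.0755 and 0.0556 without Chow 7 and Chow 9.

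The carriers and Idh2 rested on more libraries. Slc25a20, the carnitine-acylcarnitine carrier, and Slc25a1, the citrate carrier, rose by 0.48 ± 0.09 and 0.40 ± 0.09 on the log2 scale (adjusted p 0.0194 and 0.0278 by edgeR). Gpd2, the glycerol-phosphate shuttle enzyme that feeds electrons to coenzyme Q, rose by 0.68 ± 0.17 (adjusted p 0.0469 by edgeR). Idh2, the mitochondrial NADP-dependent isocitrate dehydrogenase, fell by 0.43 ± 0.10 on the log2 scale (adjusted p 0.0394 by edgeR). The 4 calls were lost without Chow 7 (adjusted p 0.0894, 0.121, 0.158 and 0.0923 in this order) and without Chow 9 (0.0744, 0.0654, 0.146 and 0.131). They were also lost without HFHC 2 or HFHC 3 for Slc25a20 (0.0669 and 0.0522), without HFHC 1 or HFHC 2 for Slc25a1 (0.0937 and 0.0811), without any HFHC library for Gpd2 (0.0691, 0.135 and 0.109) and without HFHC 1 or HFHC 3 for Idh2 (0.106 and 0.0971). Slc25a1 was lost with the length and GC trend removed as well (0.28, adjusted p 0.0631).

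Markers of other liver cells were read beside these results. The summed level of 6 Kupffer cell and macrophage markers was 217.7, 212.7 and 259.9 CPM in HFHC livers and 211.5, 176.8 and 197.2 CPM in Chow livers, without overlap, and 0 of the 6 were called by edgeR, with 3 at an unadjusted p under 0.05. Sums of endothelial (160.9 to 176.3 against 166.4 to 171.9 CPM), stellate (187.5 to 201.1 against 176.4 to 216.6 CPM) and cholangiocyte markers (33.5 to 39.1 against 31.3 to 37.2 CPM) overlapped. The 4 red blood cell markers summed to 228.2 to 262.6 against 215.9 to 237.4 CPM, with overlap, and 1 of the 4, Hba-a1, was called higher (0.37 on the log2 scale, adjusted p 0.0278 by edgeR). Of the 6 hepatocyte markers 2 were called lower in HFHC livers, Tat (−1.002 on the log2 scale, adjusted p 0.00673 by edgeR) and Cps1 (−0.75, adjusted p 0.00837). By edgeR 4 of the 6 had an unadjusted p under 0.05. All HFHC livers lay below all Chow livers for 3 of the 6 and above for 1, against 14.3% and 13.5% of all tested genes. The sum over the 6 overlapped between the diets. Over all tested genes edgeR called 3.38% higher and 3.3% lower, and 22.25% had an unadjusted p under 0.05. The part of the marked cells in the values of the members was not tested.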

How the data were processed

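RNA-seq counts from 6 mouse livers, 3 per diet, were used. Per the labels' protocols, total RNA was depleted of rRNA and sequenced from stranded libraries as read pairs. Per the submitters' processing notes, STAR 2.7.3a and Partek 9 were used with mm10. How strand was handled in counting, and the annotation, were not stated there. The authors deposited expected counts (estimated, without normalization), of which 22.4% were fractional beyond a tolerance of 0.01. Of the 96 members, 36 had fractional counts in each of the 6 libraries and 34 in none.

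Counts were rounded and filtered with filterByExpr (minimum count 10), which left 14896 genes. They were fitted with edgeR 4.0.16 (TMM factors of 0.9705 to 1.0216, quasi-likelihood F test, no covariate) and adjusted by Benjamini-Hochberg over all tested genes, at a threshold of 0.05. Levels are CPM on TMM-scaled totals. The floor of 3 counts, 0.097 to 0.112 CPM, covers counting error alone. Intervals are 95% confidence intervals from the fit.

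The table's gene ends lie 1 base past those of GENCODE M21 for 19939 of 20056 matched genes, so this base was removed from printed coordinates. Length is the median and GC content the mean over a gene's basic GENCODE M21 transcripts, limited to protein-coding ones where there are any. Both had a value for 95 of 96 members (93 of the 94 tested). The length and GC trend of each library was fitted with mgcv 1.9.3 over 12996 genes and used as an offset. Pseudogenes were matched with BLAST 2.17.0, and promoter windows came from RefSeq (GRCm38.p6).

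Members and gene lists were chosen with earlier results of these data known. Genes named are the called members, in each complex the 3 with the smallest p, the 2 with the highest CPM per kilobase and the extremes of change, isoform pairs, up to 3 called genes per direction of each further list, and 6 regulators. The rule gave 37 members, and the further members named were chosen after their values were seen. Alternatives were upper-quartile factors, DESeq2 1.42.0 and its size factors, limma-voom (limma 3.58.1), no filter, the length and GC offset, smaller sets of members, raw library totals and each library left out. R 4.3.3 and Python 3.11.15 were used, and the fit was tested on simulated data.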

Additional observations from a re-analysis of the deposited data

How the results depend on the processing

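Among the members, 2 genes higher and 0 lower were also found with upper-quartile factors, DESeq2's size factors, no count filter, DESeq2, limma-voom, matching pseudogenes added, and subunits and cytochrome c alone. The count higher was 1 with the length and GC trend removed, 1 with lengths of the longest principal transcript in that trend (an alternative chosen after seeing the data), and 1 without members whose counts are not whole in all 6 libraries, which removes Uqcrq. Leaving out each library in turn gave 0 to 2 higher and 0 lower. The median log2 fold change over members ranged from 0.02 to 0.13 over these omissions. It was −0.01 with the length and GC trend removed, 0.00 with the longest principal transcript, and 0.08 to 0.11 under the other alternatives. Over all genes, leaving out each library gave 207 to 527 higher and 154 to 553 lower. Of 672 values of named genes under alternatives, 606 kept their direction and side of the threshold, 29 no longer passed and 37, in 14 genes, changed sign. In 0 of the 37 did the gene pass the test in either fit, and their reported log2 fold changes were at most 0.16 in size. With the length and GC trend removed, and with the longest principal transcript in it, Ndufa4 was −0.0291 and −0.0219, Cox6a1 −0.0063 and −0.0078, Cox4i1 −0.0201 and −0.0292, Cox6c −0.0285 and −0.0021, Cox8a −0.0485 and −0.0487 and Esrra −0.0125 and −0.0156. Atp5d was −0.0079 under the first of these. Uqcrh was 0.025 with upper-quartile factors, 0.0096 with no filter and 0.0023 with pseudogenes added, and Cox7a2 was 0.0068 with upper-quartile factors. Atp5g2 was 0.0258 with upper-quartile factors, 0.0012 with DESeq2's size factors, 0.0133 with no filter, 0.0948 with limma-voom and 0.0472 with pseudogenes added. Over the omissions of a library the ranges that cross zero were −0.0786 to 0.0666 for Ndufa4, −0.1185 to 0.0077 for Sdhd, −0.0937 to 0.0848 for Uqcrh, −0.0615 to 0.0453 for Cox7a2, −0.0755 to 0.1502 for Cycs, −0.0217 to 0.3311 for Cox7a1, −0.2961 to 0.2886 for Atp5g2 and −0.0268 to 0.0764 for Tfam. No paired analysis was possible because the labels give no pairing and no litter for each animal, so litter was not modelled. Depth limits Ndufa4l2, Cox7a1, Cox4i2 and Cox6b2, which have under 2 CPM. Atp5g2 is also under 2 CPM, but it had 196 counts beside 14871 on its matching pseudogene, so its level depends on where reads were placed. With 3 animals per diet, changes smaller than the intervals were not detectable.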
